A study of Danio rerio with 24 samples.

Results

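Zebrafish genes of the aryl hydrocarbon receptor pathway were followed in whole animals raised in tetrahydrocannabinol (THC), cannabidiol (CBD) or the solvent DMSO. The 10 genes were taken by name from the 35117 Ensembl genes in the count files, and each matched 1 identifier. They comprise the receptors *ahr2* (ENSDARG00000021833) and *ahr1b* (ENSDARG00000023537), a receptor partner, *arnt2* (ENSDARG00000103697), and the 4 oxygenase genes *CYP1A1* (ENSDARG00000098315, the name that the gene table gives to zebrafish cyp1a), *cyp1b1* (ENSDARG00000068934), *cyp1c1* (ENSDARG00000101195) and *cyp1c2* (ENSDARG00000101789). The other members are the feedback genes *ahrra* (ENSDARG00000099702), *ahrrb* (ENSDARG00000052618) and *tiparp* (ENSDARG00000061841). In the RefSeq annotation of GRCz12tu, a later assembly than the GRCz11 of the counts, *cyp1c1* and *cyp1c2* are neighbours, as are *ahr1b* and *ahr2*.

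The aryl hydrocarbon receptor is a transcription factor that rests in the cytoplasm with chaperones, binds planar aromatic compounds, moves to the nucleus and pairs with an ARNT protein on DNA. Its best known targets are the CYP1 oxygenases, which oxidise aromatic compounds, and induction of cyp1a is the usual readout of receptor activation in fish. The AHR repressors and the ADP-ribosyltransferase TIPARP are targets that in turn restrain the receptor. In zebrafish *ahr2* mediates most of the response to dioxin, and cyp1a can be induced in vessel endothelium, liver and gut.

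All animals carried the transgene of Tg(fli1:egfp), a green fluorescent protein driven by sequence of the endothelial gene fli1. Animals were exposed throughout and sampled whole, as embryos 10 hours after fertilisation (10 hpf) or as larvae at 96 hpf. This gave 6 groups (DMSO, THC and CBD at each stage) with 4 libraries in each, named as biological replicates by the submitters. The sources used here give no doses, so THC and CBD cannot be matched for dose, and they do not say whether the 4 libraries came from separate clutches, so a p-value speaks only of the spread among these libraries. THC and CBD have the same formula and differ in 1 ring: the pyran ring of THC is open in CBD, which carries another free hydroxyl group instead. In RNA of whole animals, fewer cells of a type and less RNA per cell cannot be told apart.

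Totals lay between 14879976 and 29641377 counts in 23 libraries, and 3 counts, taken as the floor of detection, equal 0.103 to 0.332 CPM there (counts over the library size, which was scaled within a stage by the trimmed mean of M values, TMM). DMSO library 4 of 10 hpf held 125926 counts, with a floor of 21.4 CPM. CBD library 3 of 10 hpf held the fewest genes of the deep libraries, 20212. Floors and intervals for shares cover counting error only. The biological coefficient of variation shared by all genes was 0.195 in larvae and 0.476 in embryos, and none of the 8 endothelial marker genes looked at was at 0 in every larval library.

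In larvae, *CYP1A1* was the one gene among the members whose THC libraries stood apart from both other groups. It stood at 28.3, 24.9, 25.3 and 32.0 CPM in THC libraries 1 to 4, at 6.87, 13.8, 8.53 and 10.7 CPM with CBD, and at 5.92, 6.53, 14.7 and 14.95 CPM with DMSO. Every THC library was above every library of CBD and of DMSO, and the CBD and DMSO libraries overlapped. How many of all genes have THC libraries apart from both other groups was not counted, so this separation describes *CYP1A1* alone. The counts behind these levels were 494 to 739 with THC, 191 to 229 with CBD and 125 to 346 with DMSO.

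The group means of *CYP1A1* were 27.6 ± 3.27 CPM with THC and 9.98 ± 3.01 CPM with CBD (SD, n = 4 each), and the edgeR fit gave a 2.79-fold difference. The log2 fold change of THC against CBD was 1.48 (SE 0.290, 95% interval 0.86 to 2.10), and its p of 0.000159 became 0.566 after Benjamini-Hochberg adjustment over 21409 genes in the edgeR quasi-likelihood test. It ranked 6 of 21409 genes by p. In that test 0 genes, or 0%, passed the threshold of 0.05, and 540 genes had an unadjusted p under 0.05. The DESeq2 Wald test on the same counts called *CYP1A1* (log2 fold change 1.48, SE 0.290, adjusted p = 0.000988), 1 of 14 calls among the 17529 genes it adjusted, or 0.0799%, and all 14 were higher with THC.

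Against DMSO, the log2 fold change of *CYP1A1* with THC was 1.39 (SE 0.288, 95% interval 0.77 to 2.01, edgeR adjusted p = 0.213), from a DMSO mean of 10.5 ± 4.96 CPM. In this comparison edgeR called 11 genes, or 0.0514%, with 802 genes at an unadjusted p under 0.05, and none of the members was among the 11. DESeq2 called 53 genes, or 0.203%, with *CYP1A1* among them (adjusted p = 0.00228). CBD against DMSO gave a log2 fold change of -0.09 for *CYP1A1* (95% interval -0.71 to 0.54, edgeR adjusted p = 0.9998). Here edgeR called 0 genes (0%), 410 had an unadjusted p under 0.05, and DESeq2 called 0. The DMSO libraries serve both comparisons, so these values are not independent of each other.

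**Figure D1:**
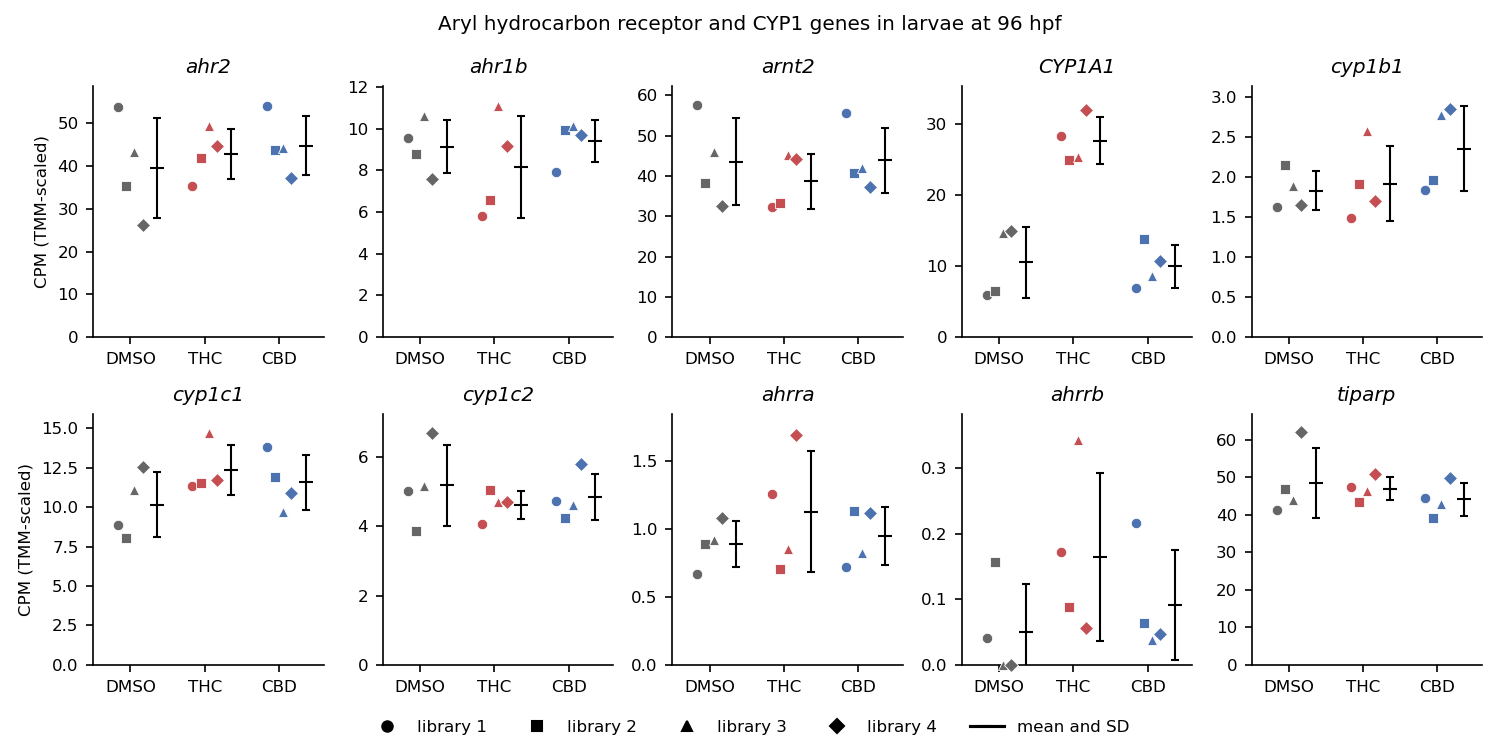
Level of the 10 genes in each larval library (vertical axis, CPM, linear from 0) in DMSO, THC and CBD, with points for the 4 libraries and a bar for the mean ± SD, cut at 0 where the SD is larger than the mean. The 4 THC libraries of CYP1A1 lie between 24.9 and 32.0 CPM, above all others, while the groups of the 9 other genes overlap.

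The DMSO larvae themselves differed in *CYP1A1*. DMSO libraries 1 and 2 averaged 6.23 CPM and libraries 3 and 4 averaged 14.8 CPM. Compared within libraries 1 and 2 only, THC was above CBD by 1.36 and above DMSO by 2.10 on the log2 scale (ratio of means, n = 2 each). Within libraries 3 and 4 the same values were 1.58 and 0.95. In these ratios the difference from CBD was similar in each pair of libraries. The difference from DMSO was over 1 log2 unit smaller in libraries 3 and 4. With n = 2 and no spread, the ratios do not show that the difference from CBD is stable. For CBD against DMSO the value was 0.73 in libraries 1 and 2 and -0.62 in libraries 3 and 4. The labels give no batch for the library numbers.

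In each of the 3 other CYP1 members the larval groups overlapped. The level of *cyp1c1*, an oxygenase gene found in fish, was 11.4, 11.6, 14.7 and 11.8 CPM with THC, 13.8, 11.9, 9.69 and 10.9 CPM with CBD, and 8.89, 8.05, 11.1 and 12.6 CPM with DMSO. Its groups overlapped, with a log2 fold change of 0.09 for THC against CBD (95% interval -0.25 to 0.44) and 0.28 for THC against DMSO (-0.06 to 0.63). Its neighbour *cyp1c2* stood at 4.07, 5.05, 4.69 and 4.69 CPM with THC, 4.74, 4.23, 4.60 and 5.79 CPM with CBD, and 5.01, 3.87, 5.17 and 6.70 CPM with DMSO. All 3 groups of *cyp1c2* overlapped, and the log2 fold change of THC against CBD was -0.07 (95% interval -0.44 to 0.31).

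*cyp1b1*, which in mammals also acts on steroids and retinoids, stood at 1.49, 1.90, 2.57 and 1.69 CPM with THC, 1.83, 1.96, 2.77 and 2.85 CPM with CBD, and 1.63, 2.14, 1.89 and 1.64 CPM with DMSO. The 2 highest libraries were CBD libraries 3 and 4, and the groups overlapped. Its log2 fold change was -0.28 for THC against CBD (95% interval -0.78 to 0.21) and 0.37 for CBD against DMSO (95% interval -0.12 to 0.87). For the 3 genes beside *CYP1A1*, the upper ends of the THC against CBD intervals lay between 0.21 and 0.44, under the lower end of the *CYP1A1* interval at 0.86. The difference between the genes was not itself tested.

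*cyp1d1*, a CYP1 gene outside the members, averaged 22.0 CPM with THC, 23.3 CPM with CBD and 21.8 CPM with DMSO, with overlapping groups. It was left out of the share given here, and counting it would lower every share. The share of *CYP1A1* in the summed counts of the 4 CYP1 members does not depend on how libraries are scaled. This share is of counts, which grow with transcript length, so it compares libraries and not the genes. It was 62.6%, 57.4%, 53.6% and 63.8% in THC libraries 1 to 4, 25.2%, 43.3%, 33.3% and 35.4% with CBD, and 27.6%, 31.7%, 44.7% and 41.7% with DMSO. Every THC library exceeded every other library. The means were 59.3% ± 4.76 with THC, 34.3% ± 7.43 with CBD and 36.4% ± 8.07 with DMSO (SD, n = 4 each). The lowest THC share, 53.6% of 1380 counts, had an exact Clopper-Pearson 95% interval of 50.9% to 56.2%, and the highest share outside THC, 44.7% of 678 counts in DMSO library 3, one of 40.9% to 48.5%.

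**Figure D2:**
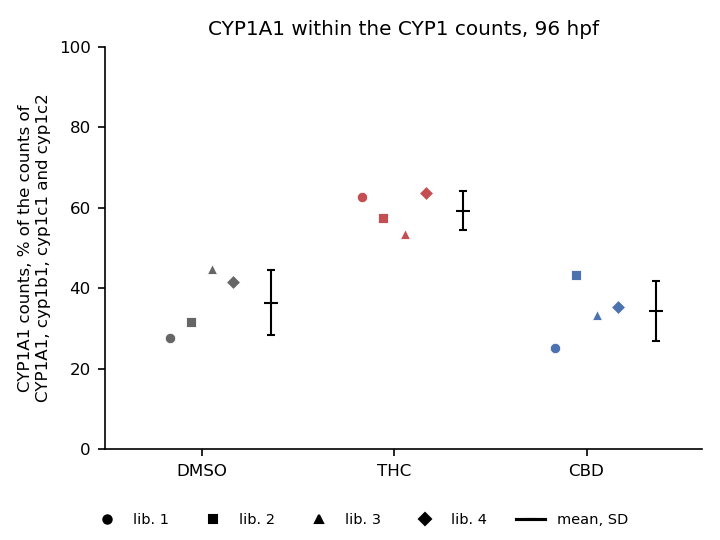
Share of CYP1A1 in the summed counts of CYP1A1, cyp1b1, cyp1c1 and cyp1c2 (vertical axis, percent, from 0) for each larval library, with points for libraries and a bar for the mean ± SD. THC libraries range from 53.6% to 63.8%, CBD libraries from 25.2% to 43.3% and DMSO libraries from 27.6% to 44.7%.

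None of *ahr2*, *ahr1b* and *arnt2* separated the groups of larvae. The partner gene *arnt*, which is not a member, averaged 8.90 CPM with THC, 9.65 CPM with CBD and 9.89 CPM with DMSO, with overlapping groups. *ahr2* stood at 35.2, 41.8, 49.3 and 44.6 CPM with THC, 54.0, 43.6, 44.1 and 37.2 CPM with CBD, and 53.7, 35.2, 43.2 and 26.1 CPM with DMSO. The DMSO libraries held the lowest value and CBD library 1 the highest, and the groups overlapped. The log2 fold change of THC against CBD was -0.07 (95% interval -0.47 to 0.34). *ahr1b*, a second receptor gene, stood at 5.79, 6.59, 11.1 and 9.15 CPM with THC, 7.91, 9.91, 10.1 and 9.71 CPM with CBD, and 9.55, 8.78, 10.6 and 7.61 CPM with DMSO. Both its lowest and its highest library were THC libraries (1 and 3), and the log2 fold change of THC against CBD was -0.20 (95% interval -0.61 to 0.21).

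*arnt2*, whose protein pairs with the receptors to bind DNA, stood at 32.2, 33.4, 45.1 and 44.1 CPM with THC, 55.7, 40.7, 42.0 and 37.3 CPM with CBD, and 57.5, 38.3, 45.9 and 32.6 CPM with DMSO. THC libraries 1 and 2 were below all CBD libraries and THC libraries 3 and 4 were not, so the groups overlapped. Its log2 fold change of THC against CBD was -0.18 (95% interval -0.57 to 0.21). The THC to CBD ratio of means for *arnt2* was -0.55 on the log2 scale in libraries 1 and 2 and 0.17 in libraries 3 and 4. For *ahr2* these values were -0.34 and 0.21, and for *ahr1b* -0.52 and 0.03.

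Of the feedback genes, *tiparp* was the evenest. It stood at 47.3, 43.3, 46.4 and 50.9 CPM with THC, 44.5, 39.1, 42.9 and 49.8 CPM with CBD, and 41.2, 46.7, 43.8 and 62.0 CPM with DMSO, where library 4 was the highest of all 12. The groups overlapped, and the log2 fold change of THC against CBD was 0.09, with an interval of -0.18 to 0.36 that was the narrowest among the members. The repressor gene *ahrra* rested on 16 to 30 counts in each library. Its level was 1.26, 0.708, 0.856 and 1.69 CPM with THC, 0.719, 1.14, 0.823 and 1.12 CPM with CBD, and 0.667, 0.889, 0.918 and 1.08 CPM with DMSO. THC libraries 1 and 4 were its 2 highest, the groups overlapped, and the log2 fold change of THC against CBD was 0.24 (95% interval -0.41 to 0.90).

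The other repressor gene, *ahrrb*, had 3, 2, 10 and 1 counts with THC, 6, 1, 1 and 1 with CBD, and 1, 3, 0 and 0 with DMSO. These counts lie around the floor, the gene did not pass the filter on low counts, and it was not tested by edgeR. Of the 9 members that passed the filter at 96 hpf, 8 had an edgeR adjusted p of 0.9999 in THC against CBD, with a median log2 fold change over the 9 of -0.07 beside 0.003 over all 21409 genes. An adjusted p of this size does not show that the compounds act alike on these genes, and the intervals above give the sizes of difference that remain possible.

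**Figure D3:**
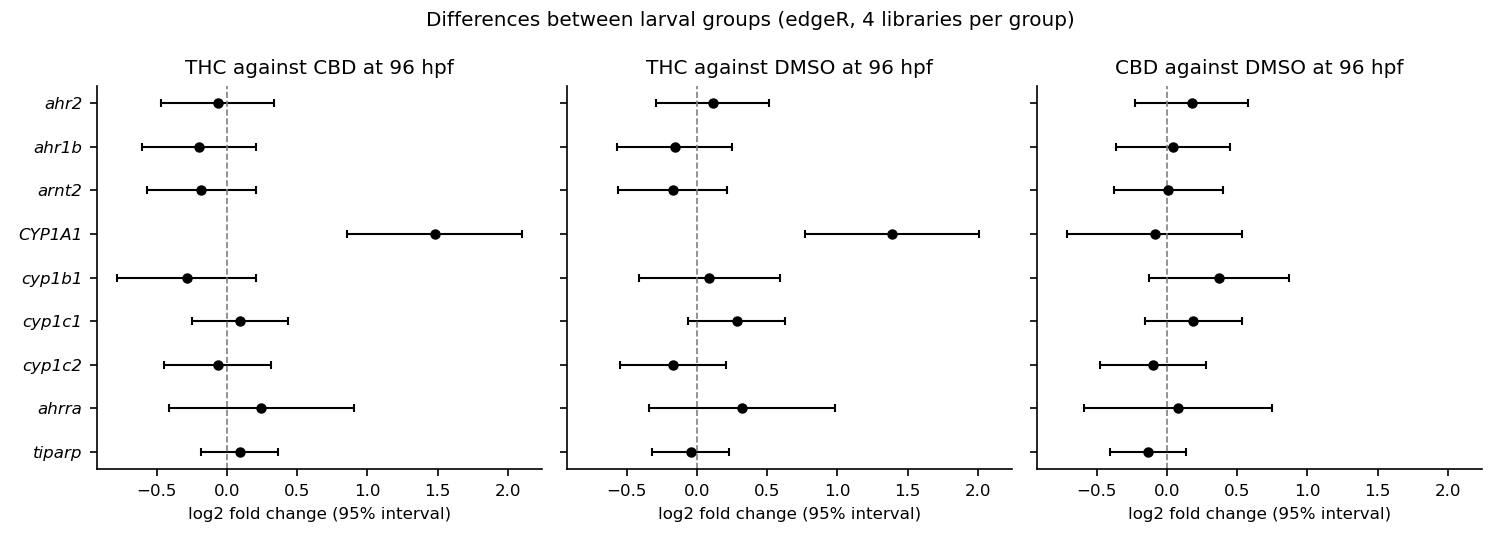
Log2 fold change (horizontal axis) of the 9 tested genes in the 3 larval comparisons, with points for the edgeR estimate and lines for the 95% interval, and a dashed line at no difference. The CYP1A1 intervals with THC run from 0.86 to 2.10 against CBD and from 0.77 to 2.01 against DMSO, and the intervals of all other genes include 0.

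Across the 12 larval libraries, the log2 CPM of *CYP1A1* had a Pearson r of 0.57 with *ahrra*, 0.54 with *cyp1c1*, 0.27 with *tiparp*, 0.01 with *cyp1c2*, -0.19 with *ahr2*, -0.22 with *cyp1b1*, -0.29 with *ahr1b* and -0.49 with *arnt2*. These values describe 12 libraries that share 3 treatments, so the THC group sets much of each. Ranked by r from the highest over all 21409 tested genes, *ahrra* was 978, *cyp1c1* 1256 and *tiparp* 5265. Many genes outside the members were thus at least as like *CYP1A1*. Among 17829 genes compared, the 5 named genes most like *CYP1A1* were *ZZEF1* (r 0.92), *abcb5* (0.91), *bahcc1a* (0.90), *CANT1* (0.89) and *ABCC12* (0.87). *abcb5* and *ABCC12* encode ATP-binding cassette transporters. *abcb5* averaged 133.7 CPM with THC, 84.3 with CBD and 71.8 with DMSO, and *ABCC12* 17.3, 10.2 and 8.15 CPM, each with an edgeR adjusted p of 0.633 in THC against CBD. Their log2 fold changes of THC against CBD were 0.67 and 0.77. Those of *ZZEF1*, *bahcc1a* and *CANT1* were 0.26, 0.57 and 0.43 (edgeR adjusted p = 0.9999 each). All 5 were picked for likeness to *CYP1A1* in these libraries, so higher levels with THC follow in part from that choice.

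Other genes of the pathway were read from 4 lists. List sizes count matched identifiers, and a symbol could match several or none. In the responsive list *sox9b* matched both *SOX9* identifiers by the human-style name, and *aldh3a1* matched none. The 2 further family genes (*ahr1a* and *cyp1d1*), 10 partner and chaperone genes, 9 tested genes of 10 listed as responsive to the receptor, and 16 further genes listed as the bHLH-PAS class, to which the receptors belong, all had 0 calls by edgeR in THC against CBD at 96 hpf. Their median log2 fold changes were 0.15, 0.08, 0.26 and 0.004, beside 0.003 over all genes. Unadjusted p values under 0.05 numbered 0, 0, 4 and 0, beside 540 of all 21409 genes. The lists were chosen with earlier results of these data known, and no test over a list was run.

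The 4 genes with the smallest p were in the responsive list. The sulfotransferase gene *sult6b1* averaged 88.4 ± 25.2 CPM with THC and 59.5 ± 2.05 CPM with CBD (log2 fold change 0.57, SE 0.175). The glucuronosyltransferase gene *UGT1A1* averaged 155.5 ± 33.4 and 106.5 ± 10.8 CPM (0.55, SE 0.229). In both, all THC libraries were above all CBD libraries. They were also in *SELENBP1* of the same list (0.32, SE 0.150), which is outside the 4 smallest p and is given for this separation. The quinone reductase gene *NQO1* averaged 79.4 ± 9.59 and 65.8 ± 10.5 CPM (0.27, SE 0.123) with overlapping groups. One of 2 genes listed as *SOX9*, a cartilage transcription factor (ENSDARG00000043923), averaged 32.7 ± 2.77 and 39.7 ± 4.30 CPM (-0.28, SE 0.1005), with all THC libraries below all CBD libraries. The edgeR adjusted p was 0.9999 for each of the 4 and for *SELENBP1*. How many of all genes separate larval groups without overlap was not counted, so these separations describe the named genes alone.

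Against DMSO, THC gave log2 fold changes of 1.001 for *UGT1A1* (edgeR adjusted p = 0.320), 0.49 for *NQO1* (0.480), 0.62 for *sult6b1* (0.779) and -0.35 for this *SOX9* gene (0.795). With CBD against DMSO the values were 0.46 for *UGT1A1*, 0.22 for *NQO1*, 0.05 for *sult6b1* and -0.07 for this *SOX9* gene. The edgeR adjusted p was 0.9998 for each, and the groups overlapped. The estimates of *UGT1A1* and *NQO1* were thus above 0 with both compounds. *ahr1a*, a receptor gene named here after its values were seen, averaged 1.55 ± 0.580 CPM with THC, 1.22 ± 0.353 CPM with CBD and 0.664 ± 0.230 CPM with DMSO. Its THC libraries were all above its DMSO libraries (log2 fold change 1.24, SE 0.3602, edgeR adjusted p = 0.813), and THC and CBD overlapped. CBD against DMSO gave 0.86 (SE 0.366, edgeR adjusted p = 0.9998) with overlapping groups, so a higher estimate was not particular to THC. The DMSO libraries held only 8 to 19 counts of *ahr1a* each.

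Markers of tissues where cyp1a can be induced were set beside *CYP1A1*. The summed level of 8 hepatocyte genes ran from 4761 to 5785 CPM with THC, 3903 to 4888 CPM with CBD and 3677 to 5699 CPM with DMSO. The sum of 8 intestinal genes ran from 635 to 1065 CPM with THC, 599 to 674 CPM with CBD and 408 to 639 CPM with DMSO. The sum of 8 endothelial genes ran from 201 to 285, 229 to 279 and 218 to 308 CPM in the same order. The mean hepatocyte sum was 5466 CPM with THC, 4190 CPM with CBD and 4729 CPM with DMSO. In the same order the mean intestinal sum was 775, 633 and 557 CPM, and the mean endothelial sum 249, 254 and 265 CPM. The sums overlapped between THC and CBD in each list. edgeR called 0 of these markers in any larval comparison, where THC against CBD had 0 calls among all genes. None was at 0 in every library of a larval group. The part of these tissues in the *CYP1A1* levels was not tested.

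From 10 hpf embryos to 96 hpf larvae in DMSO, 7 of the 9 tested members rose, 1 fell and *arnt2* was not called by edgeR fitted over all 24 libraries. In this comparison 77.1% of 22741 genes were called, 42.7% higher and 34.4% lower at 96 hpf. The scaling matters here: the median log2 fold change of all genes was 0.32 with TMM and 1.14 with the size factors of DESeq2, and 55.4% and 71.5% of the calls were higher. On the scale of the 24 libraries, *CYP1A1* went from a mean of 0.473 to 9.79 CPM (log2 fold change 3.91, SE 0.733, adjusted p = 5.05e-05) and *cyp1c1* from 0.845 to 9.46 CPM (3.05, SE 0.731, adjusted p = 0.000679). The embryo means of both genes rest largely on DMSO library 1. Without it they were 0.0971 and 0.293 CPM, and the log2 fold changes 6.01 (SE 0.862) and 4.42 (SE 0.857), the same direction with larger values. *ahr2* rose from 8.65 to 36.9 CPM (2.03, SE 0.274, adjusted p = 6.64e-07). *tiparp* fell from 119.4 to 45.3 CPM (-1.41, SE 0.201, adjusted p = 1.45e-06), and by 0.59 on the log2 scale with the size factors (adjusted p = 0.00751). *arnt2* stood at 35.85 and 40.6 CPM (0.07, SE 0.233, adjusted p = 0.779), below the median of all genes, and with the size factors it was called higher (0.89, adjusted p = 0.00158), again below the median of that fit.

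The 4 other members that rose had almost no reads in 10 hpf DMSO embryos, so their folds are not given. *cyp1b1* had 5 counts over the 4 embryo libraries and 157 over the larval ones (adjusted p = 1.53e-06), *ahrra* 6 and 77 (0.000574), *ahr1b* 4 and 792 (3.18e-10), and *cyp1c2* 1 and 456 (7.19e-10), all by edgeR. DMSO library 4 of 10 hpf could show none of these genes at such levels. Without it and CBD library 3, 8 members were called. Both the TMM scaling and the size factors called these 4 genes, *CYP1A1*, *cyp1c1* and *ahr2* higher, each by more than the median of all genes.

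Of the 37 other pathway genes tested, 28 were called between the stages, or 75.7%, near the 77.1% of all genes. *ahr1a* rose (log2 fold change 2.43, SE 0.657, edgeR adjusted p = 0.00205), and *cyp1d1* was not called (0.53, adjusted p = 0.0581) except with the size factors (1.36, adjusted p = 3.22e-05). Of the 10 partner genes 2 rose, the chaperone gene *HSP90AA1* and the *PTGES3* gene ENSDARG00000037284, and 6 fell, namely the *PTGES3* gene ENSDARG00000089626, *NCOA2*, *NCOA3* and, with TMM only, *arnt*, *NCOA1* and *HSP90AB1*, the last of which pointed up with the size factors (0.38). Of the 9 responsive genes tested, *FOXQ1*, *foxq1b*, the *SOX9* gene ENSDARG00000003293, *UGT1A1*, *SELENBP1* and *NFE2L2* rose, while *sult6b1* (-2.27, SE 0.438, adjusted p = 6.96e-05) fell and *NQO1* fell with TMM only (-1.10, SE 0.220, adjusted p = 0.000107, and -0.28 with the size factors). Of the 16 further bHLH-PAS class genes, *hif1aa*, the *EPAS1* gene ENSDARG00000057671, *sim1b*, *NPAS1*, *npas2*, the *NPAS4* gene ENSDARG00000055752 and both *BMAL1* genes rose, and the *EPAS1* gene ENSDARG00000008697, the *CLOCK* gene ENSDARG00000011703 and *bmal2* fell.

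At 10 hpf only *ahr2*, *arnt2*, *tiparp* and *cyp1c1* passed the filter on low counts. edgeR called 0 of 17595 genes (0%) in each of the 3 comparisons, with 1601 genes at an unadjusted p under 0.05 in THC against CBD, 49 in THC against DMSO and 952 in CBD against DMSO, and DESeq2 called 0 in each. *ahr2* had a lower mean with CBD than with DMSO or THC at this stage, without passing adjustment. It stood at 6.97, 4.65, 2.77 and 4.71 CPM with CBD, 7.09, 10.5, 7.46 and 7.14 CPM with DMSO, and 8.34, 10.6, 10.99 and 6.78 CPM with THC. Every CBD library was below every DMSO library, though DMSO library 4 rests on 1 count and CBD library 1 was close to DMSO library 1. How many of all genes separate groups of embryos in this way was not counted, so the separation describes *ahr2* alone.

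The log2 fold change of *ahr2* at 10 hpf was -0.78 for CBD against DMSO (SE 0.336, edgeR adjusted p = 0.805) and 0.93 for THC against CBD (SE 0.322, adjusted p = 0.542). Without DMSO library 4 and CBD library 3 these were -0.62 and 0.74. In larvae the same THC against CBD value was -0.07, and the difference between the stages was -1.001 (SE 0.348, edgeR adjusted p = 0.426). That test of the stage difference called 0 of 22741 genes (0%), with 2458 at an unadjusted p under 0.05, and DESeq2 called none of the members.

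In DMSO and CBD embryos, most *CYP1A1* counts came from library 1. Its counts were 32, 4, 1 and 0 in DMSO libraries 1 to 4, 36, 8, 0 and 4 with CBD, and 4, 4, 5 and 3 with THC. Likewise *cyp1c1* had 50, 9, 6 and 0 counts with DMSO, 69, 2, 0 and 11 with CBD, and 7, 10, 13 and 11 with THC. The highest library of both genes was library 1 in DMSO and in CBD. These 2 libraries were also the ones with *MYOG*, a gene of muscle differentiation, at 3.29 and 7.44 CPM, while no other 10 hpf library had over 0.0555 CPM, and with the slow muscle myosin *smyhc1* at 66.6 and 149.3 CPM. The other listed stage markers, *nanog* and *he1.1*, did not mark these 2 libraries alone. *nanog* stood at 9.41 and 10.03 CPM there, but also at 10.98 CPM in CBD library 2 and 10.23 CPM in THC library 4. The other 10 hpf libraries had 69.7 to 200.3 CPM, apart from DMSO library 4 with 1 count. *he1.1* stood at 60.6 and 151.99 CPM in library 1 of DMSO and of CBD. Next came 10.6 CPM in CBD library 2 and 16.9 CPM in THC library 4, with at most 3.43 CPM elsewhere. CBD library 2 and THC library 4 held only 8 and 3 counts of *CYP1A1*, and 2 and 11 of *cyp1c1*. The libraries thus differed in these markers within each group. The part of these differences in the *CYP1A1* and *cyp1c1* counts was not tested.

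At 10 hpf *cyp1c1* had wide intervals, with a log2 fold change of -0.91 for THC against CBD (95% interval -3.03 to 1.204). For *CYP1A1* the estimated THC against CBD difference was larger at 96 hpf than at 10 hpf by 3.07 on the log2 scale (SE 0.958, edgeR adjusted p = 0.426). That value includes the 36 counts of CBD library 1. *CYP1A1* did not pass the filter in the fit of 10 hpf alone, and each THC embryo library held 3 to 5 counts, near the floor. The 10 hpf side of the value is therefore uncertain.

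*tiparp* was the member with the most reads in embryos, at 139.4, 119.1, 115.4 and 118.2 CPM with THC, 70.3, 142.45, 122.45 and 152.9 CPM with CBD, and 94.5, 116.3, 127.2 and 107.1 CPM with DMSO. The CBD libraries spanned the other 2 groups, and the log2 fold change of THC against CBD was 0.01 (95% interval -0.47 to 0.50). *arnt2* stood at 36.2, 33.6, 38.7 and 32.3 CPM with THC, 45.1, 23.9, 21.4 and 24.7 CPM with CBD, and 41.0, 34.6, 36.2 and 21.4 CPM with DMSO. Among its CBD libraries, 2 to 4 were below all THC libraries and library 1 was above them, so the groups overlapped (log2 fold change 0.29, 95% interval -0.25 to 0.83). The other members stayed near or under the floor in embryos, with *ahr1b* at 4, 3 and 2 counts over the 4 libraries of DMSO, THC and CBD, *ahrra* at 6, 6 and 2, *ahrrb* at 8, 6 and 2, *cyp1b1* at 5, 5 and 4, and *cyp1c2* at 1, 4 and 1.

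**Figure D4:**
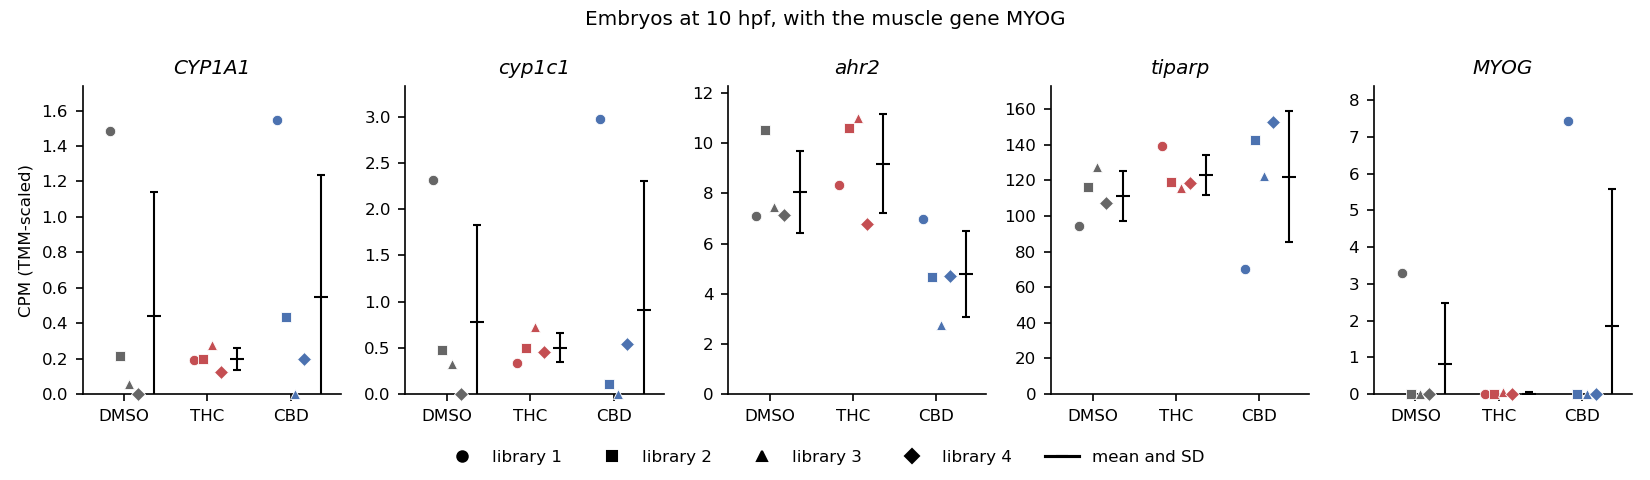
Level of CYP1A1, cyp1c1, ahr2, tiparp and the muscle gene MYOG in each 10 hpf library (vertical axis, CPM, linear from 0) in DMSO, THC and CBD, with points for the 4 libraries and a bar for the mean ± SD, cut at 0 where the SD is larger than the mean. DMSO library 4 has 125926 counts in all, so its points rest on 0 to 15 counts, and the highest points of CYP1A1, cyp1c1 and MYOG are library 1 of DMSO and of CBD.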

How the data were processed

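RNA of whole animals was extracted on RNeasy columns with DNase treatment and made into TruSeq libraries read in pairs on a HiSeq instrument, per the labels' protocols. The deposited files hold raw read counts per Ensembl gene, with 0 rows that name no gene. The submitters' processing notes name STAR, HTSeq, edgeR and the build GRCz11, without versions or counting settings. Counts of near-identical paralogs and of overlapping or antisense genes are therefore less certain. Symbols covered 27000 of 35117 identifiers, and symbols with a paralog letter that did not match were looked up by the human-style name without it.

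Each stage was fitted over its 12 libraries, and the stage comparisons over all 24, in edgeR 4.0.16 (R 4.3.3) with filterByExpr (minimum count 10, minimum total 15), TMM scaling, the quasi-likelihood F test, and Benjamini-Hochberg adjustment over all tested genes with a threshold of 0.05. Each SE is the log2 fold change over the root of its F value, and 95% intervals use the fit's degrees of freedom. A fold change from the fit uses moderated group averages and can differ slightly from the ratio of mean CPM. Correlations used log2 CPM with a prior count of 2. The 5 genes most like *CYP1A1* were sought among genes outside the members with a symbol and an average of at least 1 CPM. The other correlations and the ranks had no such limit and used all tested genes.

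Every member is named. Other pathway genes are named where they passed the threshold in a comparison, with the 4 smallest p in THC against CBD at 96 hpf and 5 genes most like *CYP1A1*. The members, lists and tests were chosen with earlier results of these data known. Alternatives were DESeq2 1.42.0 (size factors, and its Wald test), no filter, the replicate number as a block, libraries 1 and 2 against 3 and 4 as a term, a fit at 10 hpf without DMSO library 4 and without CBD library 3, and leaving out each library. No pair of replicates was as alike as sampling noise allows (36 pairs, chi-square at least 2.53 times its degrees of freedom), so none was taken as a copy of another. The lowest value was from a pair with the shallow DMSO library 4 of 10 hpf. Each library counted once, but this check cannot show that libraries came from separate animals or clutches. Sequences of the genes are not shown here.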

Additional observations from a re-analysis of the deposited data

Results flagged for a closer look

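In 7 of 48 combinations of a gene and a group, 1 library lay far from the other 3 by Dixon's criterion. The combinations were those whose highest library had over 3 counts, a limit set after first values were seen. For normal and independent values, 1 in 20 would be flagged, or about 2.4. Low counts and genes that share libraries break that assumption, so the 7 cannot be compared with chance. In DMSO at 10 hpf, library 1 had *CYP1A1* at 1.48 CPM against 0 to 0.213 in the others, and *cyp1b1* at 0.232 CPM (5 counts) against 0. In the same group *ahr2* stood at 10.5 CPM in library 2 against 7.09 to 7.46. Library 4 of this group has a floor of 21.4 CPM. Its *ahr2* value of 7.14 CPM (1 count) and its 0 for *CYP1A1* and *cyp1b1* therefore say little. In THC at 10 hpf, *tiparp* stood at 139.4 CPM in library 1 against 115.4 to 119.1. In CBD at 10 hpf, *arnt2* stood at 45.1 CPM in library 1 against 21.4 to 24.7. Among larvae, *cyp1c1* stood at 14.7 CPM in THC library 3 against 11.4 to 11.8, and *ahrrb* at 0.216 CPM (6 counts) in CBD library 1 against 0.0374 to 0.0631.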

How the results depend on the processing

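For THC against CBD at 96 hpf, the number of genes called was 0 with edgeR, 14 by the DESeq2 Wald test and 1 without a filter, and 0 to 1 when 1 library was left out (1 without THC library 3). Of the members, 1 was called by DESeq2, *CYP1A1* with a log2 fold change of 1.481. In the 16 other alternatives it stayed positive and not past the threshold: 1.338 to 1.670 when 1 library was left out (adjusted p 0.268 to 1), 1.487 with DESeq2 size factors, 1.483 without a filter and 1.474 with libraries 1 and 2 against 3 and 4 as a term. For THC against DMSO at 96 hpf, 11 genes became 53 by DESeq2, 18 without a filter, 1 with the replicate block and 1 to 31 when 1 library was left out (31 without DMSO library 3); 1 member was called by DESeq2, *CYP1A1* at 1.385. Leaving out 1 library gave 0 to 14 calls in THC against CBD at 10 hpf and 0 to 4 in CBD against DMSO at 10 hpf, the highest in each without CBD library 1. With the replicate block, *CYP1A1* had 1.5 for THC against CBD and 1.462 for THC against DMSO at 96 hpf, and no member was called. The labels pair no samples, and same-numbered larval libraries of different groups had a correlation of deviations over 0.1 in 7 of 12 pairs (median 0.14), with the best partner under the own number for 6 of 12 libraries; at 10 hpf it was 4 of 12 and 2 of 12. Larval libraries with other numbers within 1 and 2 or within 3 and 4 had a median of 0.10, and those across these a median of -0.11. Since not every same-numbered pair was over 0.1, the number was not taken as a pairing, and what libraries 1 and 2, or 3 and 4, may share was not tested.

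Direction changed for values that were not called. *arnt2* in CBD against DMSO at 96 hpf (0.01) was -0.00765 with DESeq2 size factors, -0.009391 by the Wald test and -0.004669 without a filter. At 10 hpf, *cyp1c1* in THC against CBD was 0.2413 with the block, *arnt2* in THC against DMSO 0.04872 with the block and 0.02725 with libraries 1 and 2 against 3 and 4 as a term, and *cyp1c1* in CBD against DMSO 0.2188 without DMSO library 4 and CBD library 3. Leaving out 1 library gave ranges that cross 0. In THC against CBD at 96 hpf these were -0.002869 to 0.1974 for *cyp1c1*, -0.1217 to 0.02998 for *cyp1c2*, -0.1437 to 0.0428 for *ahr2* and -0.01189 to 0.4279 for *ahrra*. In THC against DMSO at 96 hpf they were -0.09653 to 0.1757 for *cyp1b1*, -0.04438 to 0.288 for *ahr2* and -0.1259 to 0.09565 for *tiparp*. In CBD against DMSO at 96 hpf they were -0.3045 to 0.1249 for *CYP1A1*, -0.2301 to 0.03788 for *cyp1c2*, -0.0472 to 0.1197 for *ahr1b*, -0.06024 to 0.1839 for *ahrra* and -0.1347 to 0.156 for *arnt2*. At 10 hpf they were -0.1763 to 0.1423 for *tiparp* in THC against CBD, -0.09176 to 0.09161 for *arnt2* in THC against DMSO, and -0.516 to 0.2446 for *cyp1c1* and -0.01044 to 0.3158 for *tiparp* in CBD against DMSO. The causes were not tested. Of the 8 members called between stages in DMSO, 8 to 9 were called in each alternative, *arnt2* being the added one with DESeq2 size factors. Depth limits *ahrrb* at both stages and most members at 10 hpf.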
